A study of Mus musculus with 6 samples.

Results

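The 38 genes described here encode the proteins that copy DNA in S phase and mend the copying fork. They were looked up by gene symbol, and all 38 were found among the 46329 symbols of the deposited files. All 38 also passed the filter on low counts that left 15777 genes to test. They were measured in RNA of bone marrow neutrophils of male mice of genotype WT, isolated by flow cytometry per the design text of the series. The groups were 3 libraries of Control mice and 3 of mice kept under chronic unpredictable mild stress (CUMS), in which changing mild stressors follow one another over 4 weeks. Whether each library came from its own mouse is not given in the sources used here, so the p-values measure the spread between these samples, which may be technical.

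Before a cell enters S phase, the origin recognition complex, Cdc6 and Cdt1 load the ring of Mcm2 to Mcm7 onto origins, which is called licensing. Cdc45 and the GINS complex then turn that ring into the active helicase, the clamp Pcna holds the polymerases on DNA, and ribonucleotide reductase with thymidylate synthase supplies deoxynucleotides. Neutrophil precursors divide in the marrow up to the myelocyte stage and stop dividing as they mature, so transcripts of this machinery mark the dividing fraction of a granulocyte pool.

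Library totals ran from 78845457 to 109757558 estimated counts, equal to about 19711364 to 27439390 read pairs, since 1 read pair was worth about 4 in these files. The sorted cells carried the defining transcripts of neutrophils. The alarmin gene S100a8 stood at 19254 ± 455 in Control and 15118 ± 4110 in CUMS (mean and SD, n = 3 each). These values are in CPM, counts scaled to the library total and by TMM factors between libraries. The summed level of 12 neutrophil markers was 130364 to 142440 CPM in Control and 111146 to 138114 CPM in CUMS. Of the 12, 2 fell and 1 rose, beside 2.14% and 2.36% of all tested genes.

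Replication and repair transcripts were lower after CUMS, by small amounts. Of the 38 genes, 5 fell past an adjusted p of 0.05 in edgeR's quasi-likelihood test: both subunits of ribonucleotide reductase (Rrm1 and Rrm2), the chromatin factor Uhrf1, the fork checkpoint adaptor Clspn and the barely detected GINS subunit Gins1. That is 13.2% of them, beside 2.14% of all tested genes called lower in the same comparison. Gins1 passed the filter on low counts only through its Control libraries, so its call adds no support to this count. Without that filter 4 of the 38 fell, Gins1 not among them. With DESeq2 the count was 8, beside 3.31% of all genes. In edgeR the count dropped to 2 on leaving out either Control replicate 1 or 3 or else CUMS replicate 3, and to 3 on leaving out any one of the other libraries. None rose (0 at an unadjusted p under 0.05 and 0 with DESeq2), against 2.36% of all genes. In all, 33 of the 38 (86.8%) had a negative log2 fold change, against 51.6% of all genes, and the median was -0.31, against -0.0073. All 3 CUMS libraries lay below all 3 Control libraries for 15 of the 38 (39.5%), beside 11.5% of all genes. Gins1 is among these 15, with the same limit. The summed level of the 38 was 214.9, 209.5 and 211.3 CPM in Control replicates 1 to 3 and 165.3, 170.3 and 168.5 CPM in CUMS replicates 1 to 3. The sum was thus 20.7% lower in CUMS, with no overlap of the groups. In RNA of a whole cell pool, fewer dividing cells and less of a transcript in each dividing cell cannot be told apart.

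Values are given by step of the pathway. The median log2 fold change was -0.18 over the 10 licensing genes, -0.11 over the 4 genes of helicase activation and -0.24 over the 5 genes of the clamp, its loader and single-strand binding. It was -0.32 over the 6 genes of polymerases and Okazaki fragments. Larger medians were seen for nucleotide supply (-0.54, 5 genes), for copying of chromatin (-0.55, 3 genes) and for recombination and fork protection (-0.67, 5 genes). The summed level of a step was 12.4% lower in CUMS for licensing, 32.6% lower for nucleotide supply and 33.9% lower for recombination. Whether the steps differ from each other was not tested. Leaving out Control replicate 2 brought the licensing median to -0.033 and the recombination median to -0.45, and leaving out CUMS replicate 3 brought the clamp median to -0.37. The helicase median was -0.069 without Control replicate 1, -0.037 without CUMS replicate 1, -0.20 without CUMS replicate 2 and -0.18 without CUMS replicate 3.

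**Figure D1:**
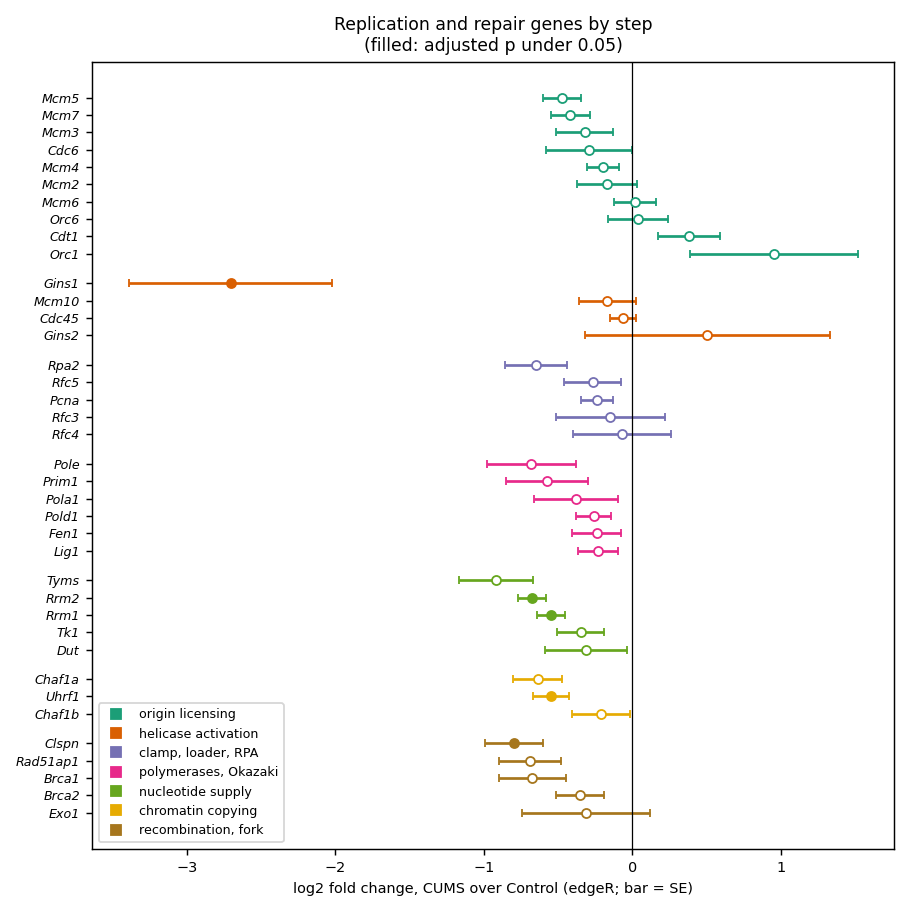
Log2 fold change of CUMS over Control (x axis) of each of the 38 genes (y axis), grouped and coloured by step. Bars are SE from edgeR and filled points are the 5 genes past an adjusted p of 0.05. Most points lie left of 0, and 4 of the 5 on the right belong to licensing.

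Many promoters of these genes hold letters bound by E2F, the factor family that switches on replication genes at the start of S phase. RefSeq promoters of GRCm38.p6 (300 bases, from 250 before the start to 50 after) were found for 33 of the 38 genes. The forms searched, on both strands, were TTGGCGC or TTCGCGC and also TTCCCGC or TTGCCGC. At least 1 form occurred in 22 of these 33 (66.7%). The share was 15.7% of 11206 promoters of tested genes, 9.7% of all 27025 promoters of the table, 14.3% of 21 promoters of mitosis genes and 42.9% of 21 promoters of excision repair and end joining genes. With the looser core letters GGCGC, on both strands, these contrasts were much smaller. The core was in 78.8% of the 33, in 71.4% of mitosis genes, in 61.9% of excision repair and end joining genes and in 57.8% of tested genes. The letters TTTGAA, the cell cycle homology region (CHR) of genes switched on in G2 and mitosis, showed the opposite pattern. They were in 3 of the 33 (9.1%) and in 15 of the 21 mitosis promoters (71.4%), beside 13.2% of tested genes. The NF-Y letters CCAAT were in 63.6% and 81.0% of the same promoters, beside 38.9%. The E2F letters on opposite strands can share bases, as in Mcm6. Among the 33, the median log2 fold change was -0.40 with E2F letters (22 genes) and -0.24 without (11 genes). It was -0.42 with NF-Y letters (21 genes) and -0.26 without (12 genes), and -0.17 with CHR letters (3 genes) and -0.33 without (30 genes). None of these splits was tested. The median CpG content was 7.0 per 100 bases in these promoters, against 6.3 in those of tested genes. It was 8.3 in those of mitosis genes and 7.3 in those of excision repair and end joining genes. Over all promoters of the table it was 2.3, so the share of 9.7% comes from promoters much poorer in CpG. A match is a description of letters and not evidence of binding.

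Stretches before the start are printed for the called genes with a promoter in the table (Rrm1, Rrm2, Uhrf1 and Clspn). Mcm5 and Mcm6 are added as subunits of 1 ring, chosen after their values were seen, and Top2a as a mitosis gene. They lie at chr7:102441445-102441694, plus strand, at chr12:24708004-24708240, plus strand, at chr17:56303087-56303320, plus strand and at chr4:126556730-126556934, plus strand. Those added lie at chr8:75109259-75109508, plus strand, at chr1:128359706-128359955, minus strand and at chr11:99024190-99024439, minus strand. All are on GRCm38.p6 and hold no annotated exon. Each is written 5′ to 3′ along its gene, and capitals mark E2F, NF-Y and CHR letters on either strand.
Rrm1: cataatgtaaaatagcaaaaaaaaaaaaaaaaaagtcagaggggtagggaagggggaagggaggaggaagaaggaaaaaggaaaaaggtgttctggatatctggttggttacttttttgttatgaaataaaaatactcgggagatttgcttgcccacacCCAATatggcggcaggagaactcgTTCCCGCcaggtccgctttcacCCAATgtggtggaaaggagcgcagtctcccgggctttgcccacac
Rrm2: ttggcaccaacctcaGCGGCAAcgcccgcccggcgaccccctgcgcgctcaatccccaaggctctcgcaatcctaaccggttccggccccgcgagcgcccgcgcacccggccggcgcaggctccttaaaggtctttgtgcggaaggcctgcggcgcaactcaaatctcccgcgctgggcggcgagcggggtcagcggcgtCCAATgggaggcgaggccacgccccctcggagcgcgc
Uhrf1: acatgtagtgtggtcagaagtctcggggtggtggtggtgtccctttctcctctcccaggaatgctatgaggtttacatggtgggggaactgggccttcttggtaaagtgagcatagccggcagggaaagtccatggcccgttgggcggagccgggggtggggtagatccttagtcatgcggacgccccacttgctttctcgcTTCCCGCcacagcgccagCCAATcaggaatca
Clspn: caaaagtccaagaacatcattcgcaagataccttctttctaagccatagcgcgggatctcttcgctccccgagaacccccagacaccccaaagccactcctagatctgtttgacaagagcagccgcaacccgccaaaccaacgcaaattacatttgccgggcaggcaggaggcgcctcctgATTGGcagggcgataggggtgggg
Mcm5: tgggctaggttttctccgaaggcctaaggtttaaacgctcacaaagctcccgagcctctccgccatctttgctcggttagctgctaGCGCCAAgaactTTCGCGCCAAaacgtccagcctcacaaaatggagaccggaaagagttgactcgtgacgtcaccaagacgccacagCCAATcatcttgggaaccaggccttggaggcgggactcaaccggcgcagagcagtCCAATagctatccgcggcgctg
Mcm6: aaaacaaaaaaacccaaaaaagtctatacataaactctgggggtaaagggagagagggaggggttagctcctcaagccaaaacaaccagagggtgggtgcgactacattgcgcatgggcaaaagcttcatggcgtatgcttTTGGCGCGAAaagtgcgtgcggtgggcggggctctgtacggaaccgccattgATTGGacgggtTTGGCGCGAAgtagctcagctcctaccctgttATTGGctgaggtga
Top2a: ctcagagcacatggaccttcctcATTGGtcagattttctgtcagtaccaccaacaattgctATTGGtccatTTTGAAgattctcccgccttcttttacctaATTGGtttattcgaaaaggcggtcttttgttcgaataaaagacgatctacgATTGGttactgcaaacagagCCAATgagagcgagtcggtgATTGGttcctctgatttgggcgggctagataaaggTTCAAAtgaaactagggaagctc
In Rrm1 the E2F letters begin at position -67 from the RefSeq start, between CCAAT boxes at -91 and -45. In Uhrf1 they begin at -48, with a CCAAT box at -30. The only E2F match of Rrm2 lies far upstream, at -235, and that of Clspn begins at 22, after the start and outside the printed stretch. Mcm6, which did not pass the test, holds 5 matches in its 300 bases, more than any other of the 33 promoters, and Tyms, with the largest negative fold change of the 33, holds none. The Top2a stretch has CHR and CCAAT letters and no E2F letters.

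**Figure D2:**
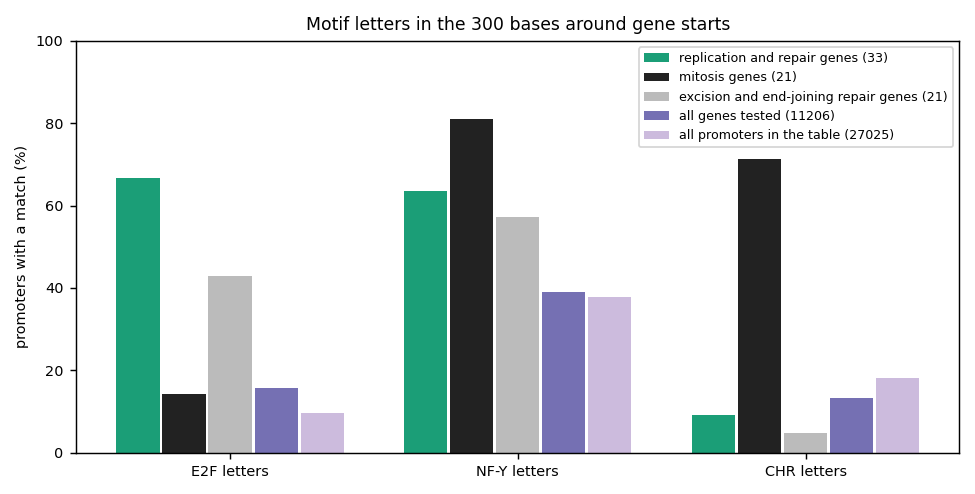
Share of promoters (y axis, %) with E2F, NF-Y or CHR letters in the 300 bases around the start, in 5 sets of genes with the number of promoters in brackets. The full E2F forms are in 66.7% of the replication and repair genes and 14.3% of the mitosis genes. With the core letters, not plotted, the shares are 78.8% and 71.4%.

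The smallest adjusted p-values of the 38 genes were in nucleotide supply. Ribonucleotide reductase makes deoxynucleotides from ribonucleotides, with Rrm1 as its large catalytic subunit and Rrm2 as the small subunit made in S phase. Rrm2 (chromosome 12, 24708241 to 24714146, GRCm38) measured 17.6, 17.3 and 19.5 CPM in the Control libraries against 10.7, 11.5 and 11.8 CPM under CUMS. It fell from 18.1 ± 1.20 to 11.3 ± 0.606 CPM (SD, n = 3 each), which on the log2 scale is -0.68 ± 0.094, adjusted p = 0.00198. Rrm1 (chromosome 7, 102441695 to 102469771) measured 16.5, 14.5 and 15.6 CPM in the Control libraries against 10.9, 10.7 and 10.3 CPM under CUMS. Its mean went from 15.5 ± 1.01 to 10.6 ± 0.266 CPM (SD, n = 3 each), with a log2 fold change of -0.54 ± 0.095, adjusted p = 0.00756. For both subunits every CUMS library lay below every Control library by more than the spread within either group. Both calls held without any single library (adjusted p 0.00614 to 0.0154 for Rrm2 and 0.0188 to 0.0484 for Rrm1), with DESeq2 and in every other edgeR setting tried.

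Tyms, which makes thymidylate, had the largest fold change of the step and missed the threshold. It measured 2.03, 2.89 and 2.11 CPM in the Control libraries against 1.24, 1.46 and 1.03 CPM under CUMS (log2 fold change -0.92 ± 0.25, adjusted p = 0.0628), with no overlap between the groups. The thymidine kinase gene Tk1 had -0.35 ± 0.16, adjusted p = 0.298 and the dUTPase gene Dut -0.31 ± 0.28, adjusted p = 0.650, and for both the groups overlapped. Tyms and Dut rest on few read pairs, 26.0 to 74.8 and 21.8 to 41.5 per library. All 5 genes of the step were lower in CUMS and 2 fell.

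**Figure D3:**
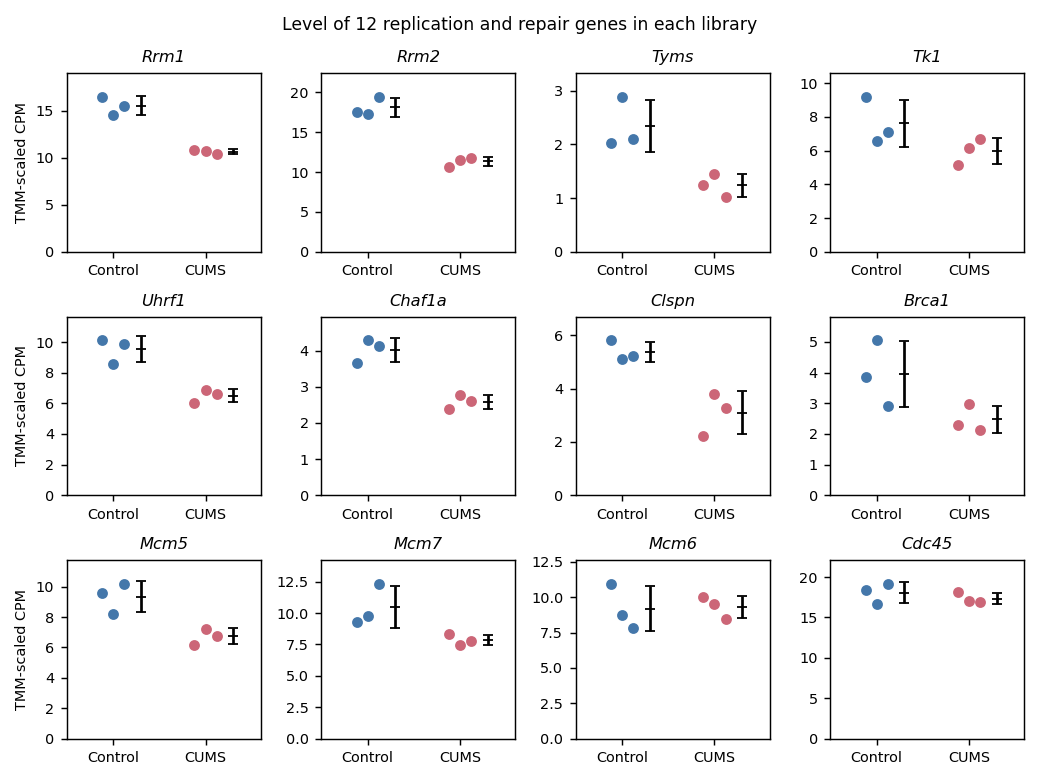
TMM-scaled CPM (y axis, from 0) of 12 genes in each of the 3 Control and 3 CUMS libraries (points), with mean and SD beside them. Rrm1, Rrm2, Tyms, Uhrf1, Chaf1a, Clspn, Mcm5 and Mcm7 show no overlap between groups, whereas Mcm6 and Cdc45 are at like levels in both. The 12 are a selection: all CUMS libraries lay below all Control libraries for 15 of the 38 (39.5%), beside 11.5% of all genes.

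Recombination and fork protection genes were lower in CUMS in all 5 cases, and 1 fell. Clspn encodes claspin, which brings the checkpoint kinase Chk1 to stalled forks. Clspn (chromosome 4, 126556935 to 126593903) measured 5.82, 5.11 and 5.22 CPM in the Control libraries against 2.21, 3.79 and 3.27 CPM under CUMS. The mean went from 5.38 ± 0.386 to 3.09 ± 0.808 CPM (SD, n = 3 each) and the log2 fold change was -0.80 ± 0.20, adjusted p = 0.0423. Its CUMS libraries were spread widely, from 2.21 to 3.79 CPM, yet none reached the lowest Control library. Clspn passed when CUMS replicate 2 was left out, but leaving out any of the other 5 libraries ended the call (adjusted p 0.0781 to 0.131). Rad51ap1, which acts in repair by recombination, measured 2.79, 3.33 and 2.31 CPM in the Control libraries against 1.79, 1.61 and 1.83 CPM under CUMS, and its groups did not overlap (log2 fold change -0.69 ± 0.21, adjusted p = 0.101). Brca1, which directs broken ends to repair by recombination, measured 3.85, 5.06 and 2.92 CPM in the Control libraries against 2.30, 2.98 and 2.14 CPM under CUMS (-0.67 ± 0.23, adjusted p = 0.142). Control replicate 3 lay below CUMS replicate 2 there, so the Brca1 groups overlapped. Brca2, which also acts in recombination, had -0.35 ± 0.16, adjusted p = 0.292 without overlap, and the exonuclease gene Exo1 had -0.31 ± 0.43, adjusted p = 0.801, on 8.75 to 17.2 read pairs per library.

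Genes that copy chromatin and its methylation behind the fork were also lower in all 3 cases, and 1 fell. Uhrf1 reads hemimethylated DNA and brings in the maintenance methyltransferase Dnmt1. Uhrf1 (chromosome 17, 56303321 to 56323486) measured 10.1, 8.58 and 9.90 CPM in the Control libraries against 6.02, 6.88 and 6.63 CPM under CUMS. The mean level went from 9.54 ± 0.835 to 6.51 ± 0.441 CPM (SD, n = 3 each), at a log2 fold change of -0.55 ± 0.12, adjusted p = 0.0257. Its groups did not overlap, but the call survived only the loss of Control replicate 2 and ended on the loss of each of the other 5 libraries (adjusted p 0.0655 to 0.0969). Chaf1a and Chaf1b encode subunits of chromatin assembly factor 1, which lays histones on new DNA. Chaf1a measured 3.66, 4.30 and 4.13 CPM in the Control libraries against 2.39, 2.77 and 2.62 CPM under CUMS and just missed the threshold (-0.64 ± 0.17, adjusted p = 0.0557). Chaf1b measured 3.75, 3.81 and 4.87 CPM in the Control libraries against 3.60, 4.33 and 2.79 CPM under CUMS, with overlapping groups (-0.21 ± 0.20, adjusted p = 0.670). The annotated exons of Chaf1a overlap those of Ubxn6 on the other strand over 52.5% of their length, and reads of such pairs cannot be told apart without strand.

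Among polymerases and Okazaki fragment genes all 6 were lower in CUMS and 0 fell (2 at an unadjusted p under 0.05 and 0 by DESeq2). Pole, the catalytic subunit gene of the leading strand polymerase, measured 2.05, 2.92 and 3.11 CPM in the Control libraries against 1.38, 2.53 and 1.14 CPM under CUMS, with CUMS replicate 2 inside the Control range (-0.68 ± 0.30, adjusted p = 0.281). Pold1, its counterpart on the lagging strand, measured 8.37, 9.28 and 8.03 CPM in the Control libraries against 6.77, 7.14 and 7.56 CPM under CUMS, with no overlap (-0.26 ± 0.12, adjusted p = 0.294). Prim1, the primase subunit that starts each fragment, measured 1.41, 1.21 and 1.71 CPM in the Control libraries against 0.914, 0.908 and 1.08 CPM under CUMS, also with no overlap (-0.57 ± 0.27, adjusted p = 0.318). Pola1, whose polymerase extends the primers, had -0.38 ± 0.28, adjusted p = 0.580. The flap nuclease gene Fen1 had -0.24 ± 0.16, adjusted p = 0.524 and the DNA ligase gene Lig1 -0.23 ± 0.13, adjusted p = 0.437. Fen1 shares 78.8% of its annotated exon length with an antisense gene, Gm10143.

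The clamp step gave 5 lower genes and 0 that fell (1 at an unadjusted p under 0.05 and 0 by DESeq2). Rpa2, a subunit of the protein that coats single-stranded DNA, measured 4.03, 4.13 and 3.68 CPM in the Control libraries against 3.30, 2.19 and 2.07 CPM under CUMS (-0.65 ± 0.21, adjusted p = 0.117). CUMS replicate 1 was its highest CUMS library, and without that library Rpa2 passed at -0.89 (adjusted p = 0.0305). Pcna measured 13.9, 13.4 and 12.4 CPM in the Control libraries against 12.5, 9.93 and 11.3 CPM under CUMS, a small shift with overlapping groups (-0.24 ± 0.11, adjusted p = 0.300). Among the clamp loader genes, Rfc5 measured 4.93, 4.55 and 3.64 CPM in the Control libraries against 2.83, 3.84 and 4.23 CPM under CUMS (-0.27 ± 0.19, adjusted p = 0.552). Rfc3 had -0.15 ± 0.37, adjusted p = 0.905 and Rfc4 -0.069 ± 0.33, adjusted p = 0.955, the loader genes with the fewest read pairs (9.75 to 28.2 and 18.8 to 35.0 per library). A pseudogene row for Pcna held at most 44 estimated counts in any library, against at least 1049 for Pcna.

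Origin licensing was mixed in sign. Of its 10 genes, 6 were lower and 4 higher in CUMS, and 0 fell (2 at an unadjusted p under 0.05 and 1 by DESeq2). Within the Mcm2 to Mcm7 ring, Mcm5 measured 9.60, 8.21 and 10.2 CPM in the Control libraries against 6.19, 7.24 and 6.77 CPM under CUMS, with no overlap. Mcm7 measured 9.27, 9.80 and 12.3 CPM in the Control libraries against 8.30, 7.48 and 7.74 CPM under CUMS, also without overlap. Their log2 fold changes were -0.47 ± 0.13 (adjusted p = 0.0636) and -0.42 ± 0.13 (adjusted p = 0.110). The other subunits ranged from -0.32 ± 0.19 for Mcm3 (adjusted p = 0.441) through -0.20 ± 0.11 for Mcm4 (0.408) and -0.17 ± 0.20 for Mcm2 (0.763) to 0.019 ± 0.14 for Mcm6 (0.973). The 6 proteins act as 1 ring, and whether the fold changes of their transcripts differ was not tested. Cdt1, the loading factor that geminin holds in check, measured 2.69, 2.57 and 1.94 CPM in the Control libraries against 3.06, 2.66 and 3.67 CPM under CUMS and had a positive fold change (0.38 ± 0.21, adjusted p = 0.387). Its partner Cdc6 had -0.29 ± 0.29, adjusted p = 0.700, and the origin recognition genes Orc1 and Orc6 had 0.96 ± 0.56, adjusted p = 0.441 and 0.037 ± 0.20, adjusted p = 0.961. Orc1 is known from 2.25 to 28.2 read pairs per library only, and its groups overlapped. Over the groups these were 26 read pairs in Control and 57 in CUMS. The depth-corrected ratio of CUMS to Control was 1.93 with an exact 95% interval of 1.20 to 3.21, which covers counting error only.

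Helicase activation was the step with the widest spread of values. Cdc45 stood at 18.4, 16.7 and 19.2 CPM in the Control libraries against 18.1, 17.0 and 16.9 CPM under CUMS (-0.062 ± 0.086, adjusted p = 0.804), and was the most precisely measured of the 38 genes. Mcm10, which helps to fire the loaded helicase, measured 6.21, 5.81 and 4.77 CPM in the Control libraries against 3.57, 5.32 and 6.01 CPM under CUMS, with CUMS replicate 1 lowest of all 6 libraries (-0.17 ± 0.19, adjusted p = 0.751). The GINS genes were close to the limit of detection. Gins1 (chromosome 2, 150905400 to 150931280) was seen in 6, 12.2 and 13 read pairs in Control and in 1.75, 1.25 and 2.25 read pairs in CUMS. All 3 CUMS libraries thus lay below 3 read pairs, and all 3 Control libraries above. Gins1 could be tested only because its Control libraries passed the filter on low counts. Over the groups these were 31 and 5 read pairs, a depth-corrected ratio of CUMS to Control of 0.142 with an exact 95% interval of 0.0432 to 0.369, which covers counting error only. The test called it (log2 fold change -2.71 ± 0.69, adjusted p = 0.0480), but the call ended without any single library (adjusted p 0.0756 to 0.210), without the filter on low counts (0.0622) and with values divided by 4, where Gins1 and Gins2 were too low to be tested. Gins2, a subunit of the same complex, had 0.51 ± 0.82, adjusted p = 0.835 on 1 to 14.5 read pairs, and its exons overlap those of Gse1 over 67.3% of their length.

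Per kilobase of transcript, Pcna, Cdc45 and Rrm2 were the most abundant of the 38 in Control, at 8.71 ± 0.487, 8.44 ± 0.600 and 8.26 ± 0.546 CPM per kilobase (SD, n = 3 each). These levels in Control differed by less than their spread. In CUMS, Cdc45 stood at 8.08 ± 0.315, Pcna at 7.39 ± 0.832 and Rrm2 at 5.17 ± 0.276 CPM per kilobase, with Rrm2 below both by more than the spread. Tk1 followed with 5.30 in Control and 4.16 in CUMS, and the lowest level in Control was that of Gins2, at 0.0532 CPM per kilobase. Precision followed level. The median SE of the log2 fold change was 0.13 for the 15 genes of at least 5 CPM in Control, 0.21 for the 18 between 1 and 5 CPM and 0.56 for the 5 under 1 CPM. Of these classes 4, 0 and 1 genes fell. A log2 fold change of the size of Rrm1 is thus less than the median SE of the lowest class.

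The libraries of a group were close to each other over the whole set. Each Control library held the highest value for 10 to 12 of the 38 genes, and each CUMS library for 1 or 2. The lowest value was in CUMS replicate 1 for 14 genes, in CUMS replicate 3 for 11 and in CUMS replicate 2 for 8. Against the mean of the 6 libraries, the median deviation over the 38 genes was 0.11 to 0.22 on the log2 scale in Control and -0.26 to -0.11 in CUMS. Thus no single library set the difference of the summed level, although the calls of single genes other than Rrm1 and Rrm2 depended on which libraries were kept.

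**Figure D4:**
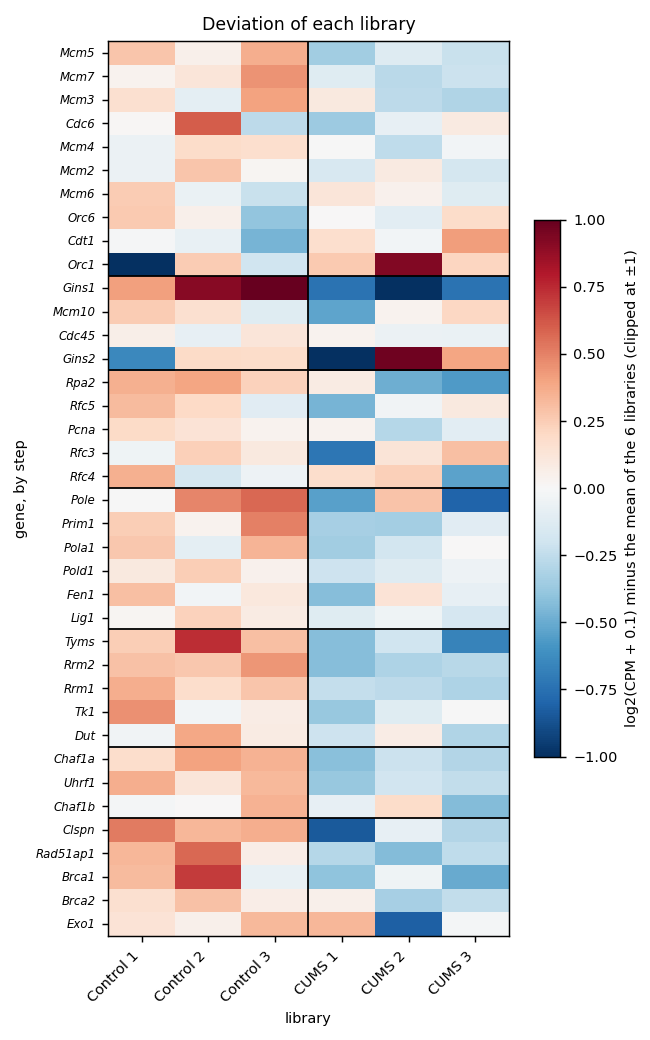
Deviation of log2(CPM + 0.1) from the mean of the 6 libraries (colour, clipped at 1 either way) for the 38 genes (rows, by step) in each library (columns). Rows of nucleotide supply, chromatin and recombination are mostly red in Control and blue in CUMS, while licensing rows are mixed.

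The other genes of replication, 72 by list, were counted in the same way. Of 71 tested, 6 fell (8.45% where 2.14% is the share of all genes) and 0 rose (1 at an unadjusted p under 0.05 and 1 by DESeq2), with a median of -0.25. Dbf4, the activating subunit of the kinase that fires origins, fell by 0.80 ± 0.16 on the log2 scale, from 7.75 ± 1.12 to 4.46 ± 0.783 CPM (SD, n = 3 each; edgeR adjusted p = 0.0187). The histone chaperone gene Asf1b fell by 0.81 ± 0.16 (adjusted p = 0.0140) and Pclaf, a partner of Pcna, by 0.66 ± 0.14 (adjusted p = 0.0236). Among recombination genes, the helicase gene Blm fell by 0.89 ± 0.19 (adjusted p = 0.0231), and the recombination motor gene Rad54l, named after its value was seen, by 0.84 ± 0.19 (adjusted p = 0.0272). Of 19 recombination genes outside the 38, 18 were lower in CUMS, where 51.6% of all genes were, and the median was -0.51. The other steps had smaller or similar medians outside the 38. These were -0.0020 for licensing (4 lower and 4 higher), -0.19 for helicase activation, -0.50 for the clamp step and -0.12 for polymerases. Nucleotide supply had -0.13 (6 lower and 3 higher) and chromatin -0.25. Left out in turn, 3 of the 6 libraries ended the call of Asf1b, 4 that of Dbf4 and of Pclaf, and 5 that of Blm and of Rad54l (adjusted p 0.0505 to 0.120). Without Control replicate 3 none of the 6 genes remained past the threshold.

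Some genes of nucleotide balance had positive fold changes. Samhd1, which breaks deoxynucleotides down and is abundant in myeloid cells, stood at 1257 ± 35.0 CPM in Control against 1324 ± 23.2 CPM (SD, n = 3 each; edgeR log2 fold change 0.075 ± 0.035, adjusted p = 0.308). The p53-inducible reductase subunit gene Rrm2b, which serves cells outside S phase, stood at 41.8 ± 2.58 CPM against 44.6 ± 0.458 CPM (0.093 ± 0.061, adjusted p = 0.502). Both had all 3 CUMS libraries above all 3 Control libraries, as did 11.5% of all genes, and both were chosen after their values were seen. The mitochondrial thymidine kinase gene Tk2 came nearest to a rise, at 0.18 ± 0.049 (adjusted p = 0.0628), and passed with DESeq2 (0.0152).

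Of the 10 E2F and pocket protein genes, 1 fell, where 2.14% of all genes did, with 4 lower at an unadjusted p under 0.05 and 2 with DESeq2. None rose (0 at an unadjusted p under 0.05 and 0 with DESeq2), and the median was -0.0081. The gene E2f7 had -0.76 ± 0.22 (edgeR adjusted p = 0.0846) and passed with DESeq2 (0.0377). Rbl1 had -0.29 ± 0.088 (edgeR adjusted p = 0.0969) and E2f4 -0.14 ± 0.063 (0.285). The repressor E2f8 fell by 0.38 ± 0.084, from 33.0 ± 1.42 to 25.3 ± 2.79 CPM (edgeR adjusted p = 0.0252), a call lost on leaving out any of 4 libraries, namely Control replicates 2 and 3 and CUMS replicates 1 and 2 (adjusted p 0.0525 to 0.116). The activators E2f1 and E2f2 had log2 fold changes of 0.060 ± 0.12 and 0.0070 ± 0.040 (adjusted p = 0.878 and 0.964), and were named after their values were seen.

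Repair outside replication was compared as well. Of 30 genes of excision repair, end joining and mismatch repair, 0 fell and 0 rose with edgeR (3 at an unadjusted p under 0.05 and 1, Xrcc1, by DESeq2), and the median was -0.0095. Their summed level was 347.2 to 355.2 CPM in Control and 343.0 to 348.2 CPM in CUMS, ranges that overlap. All 6 mismatch repair genes were lower, where 51.6% of all genes were, with a median of -0.13 and 0 at an unadjusted p under 0.05. The mitosis genes fell in 21 of 25 cases (84.0%, beside 2.14% of all genes), with a median of -0.69, and were 29.0% lower in sum. Among them Top2a fell by 0.69 ± 0.061 (adjusted p = 8.81e-05) and the kinesin gene Kif11 by 0.71 ± 0.077 (adjusted p = 4.27e-04). The mitosis genes are measured at higher levels (696 to 745 CPM in sum for 25 genes in Control), so the shares called are not on one footing. Their mean levels in Control ran from 4.94 CPM for Ttk to 227 CPM for Mki67. Nearer in level are the 15 replication and repair genes of the pathway steps with at least 5 CPM in Control. Of these 15, 4 fell, and their median was -0.26, against -0.69 for the mitosis genes. The part of level and precision in the shares called was not tested. The difference between the lists was not tested.

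**Figure D5:**
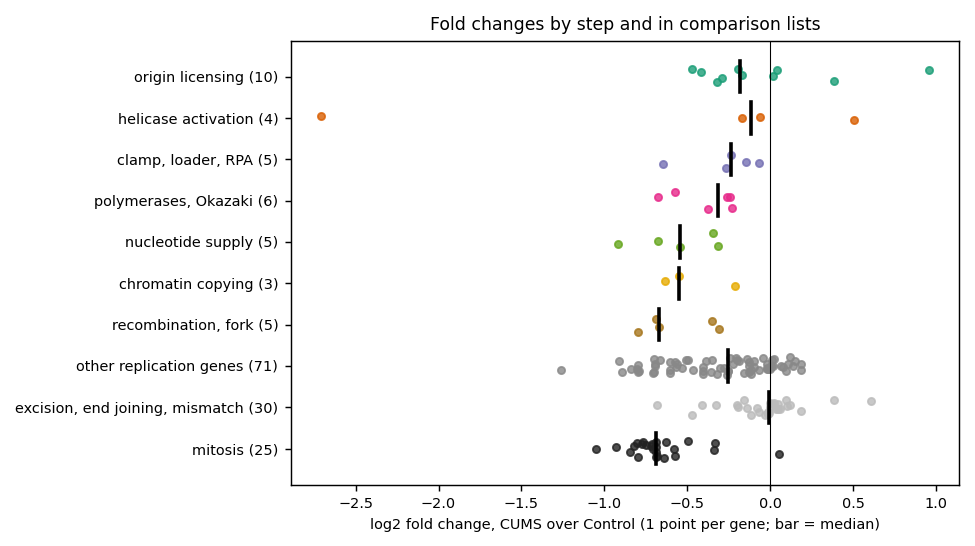
Log2 fold change of CUMS over Control (x axis), 1 point per gene and a bar at the median, for the 7 steps, the other replication genes, the repair genes outside replication and the mitosis genes (y axis, number tested in brackets). Medians run from -0.11 in helicase activation to -0.67 in recombination, with -0.0095 in repair outside replication and -0.69 in mitosis.

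Markers of other marrow cells moved in the same libraries, and some of those cells also divide. The summed level of 15 erythroid markers was 43.2 to 56.3 CPM in Control and 82.6 to 91.5 CPM in CUMS. Of the 15, 4 were past the threshold, all upward, where 2.36% of all genes rose past it. That of 15 B lineage markers was 172.6 to 177.4 and 213.5 to 222.9 CPM, with 1 of 14 tested past it, upward. The called gene, Ighm, made up most of that sum, at 141 ± 3.45 CPM in Control and 175 ± 3.16 CPM in CUMS. All 14 were higher in CUMS, with a median of 0.40. The erythroid and B lineage sums were higher in CUMS, where that of the replication genes was lower. Markers of early granulocytes summed to 3393 to 3478 CPM in Control and 2623 to 3011 CPM in CUMS, but 1 gene made up most of that sum. Chil3, a chitinase-like protein of granulocyte precursors, fell from 3039 ± 41.7 to 2434 ± 183 CPM (SD, n = 3 each; edgeR adjusted p = 0.00291), and Fcnb fell from 73.5 to 49.0 CPM (adjusted p = 0.000207). The primary granule genes Elane and Mpo rose, by 2.23 ± 0.32 and 1.03 ± 0.19 on the log2 scale (adjusted p = 0.00251 and 0.00948), from low levels of 0.454 and 3.42 CPM in Control. The median of the 10 genes was 0.020, with 5 higher and 5 lower. These 4 were named after their values were seen. The 7 progenitor markers summed to 69.8 to 70.3 and 64.0 to 70.9 CPM, with 0 past the threshold (3 at an unadjusted p under 0.05 and 2 by DESeq2). The summed monocyte markers were 755 to 809 and 727 to 814 CPM (2 of 10 rose, beside 2.36% of all genes). Those of eosinophils and basophils were 45.4 to 54.4 and 51.8 to 60.9 CPM (2 of 12 rose), with 8 genes higher and 4 lower. The eosinophil genes Prg2 and Epx, named after their values were seen, rose by 2.45 ± 0.21 and 3.68 ± 0.73, from 0.885 and 0.119 CPM in Control. Epx measured 0.217, 0 and 0.141 CPM in the Control libraries. It passed the filter on low counts only through its CUMS libraries, so its call adds no support to the count of this list. The more abundant Siglecf and Ear2 had 0.067 ± 0.078 and 0.029 ± 0.14 (edgeR adjusted p = 0.754 and 0.954). The basophil and mast cell genes Ms4a2, Fcer1a, Mcpt8 and Cpa3 were lower, with -1.58 ± 0.44 for Ms4a2 (edgeR adjusted p = 0.0682). With DESeq2 1 gene of this list fell. Plasma cell markers summed to 9.65 to 11.9 and 11.8 to 14.2 CPM. T and NK cell markers summed to 4.22 to 6.44 and 4.49 to 5.94 CPM, and megakaryocyte markers to 5.34 to 6.22 and 5.003 to 5.55 CPM. None of these last 3 lists had a gene past the threshold (0 at an unadjusted p under 0.05 and 0 with DESeq2). Tnfrsf17, a defining plasma cell marker, was listed at 0 in all 6 libraries. The part of any of these cells in the replication gene values was not tested.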

How the data were processed

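RNA of neutrophils was sequenced as pairs of 150 bp. The authors deposited 1 file per library with whole numbers per gene. The submitters' processing notes name HISAT2 2.1, featureCounts 1.6.4 and DESeq2 2.11.40.6 on mm10, without their roles. The deposited values were taken as estimated counts, since low multiples of 4 were in excess (the value 4 occurred 1.78 to 1.96 times as often as its neighbours) and 1588 rows have STRG identifiers, which a transcript assembler writes. They entered the tests as they stood, 1 row per symbol (the highest total). After filterByExpr and TMM scaling, the groups were tested with the quasi-likelihood method of edgeR 4.0.16 (R 4.3.3), with Benjamini-Hochberg adjustment over all genes and a threshold of 0.05. SE values come from the F statistic. Alternatives were RLE scaling, DESeq2 1.42.0, no filter, the replicate number as a block, values divided by 4, summed rows and leaving out each library. The test was also run on simulated data in which only genes of at least 1 CPM were changed. That run does not cover genes below this level, and its outcome is not given here.

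The genes and lists were chosen with earlier results of these data known. Values per library are given for the 3 genes of each step with the smallest adjusted p, and fold changes for all. Of the other lists, up to 2 called genes each are named, and 1 result is not reported here. Positions, transcript lengths (longest coding transcript) and exon overlaps come from GENCODE M21 on GRCm38, and promoters from RefSeq on GRCm38.p6, taking the first entry of each symbol. Motif searches, like counts over lists, are descriptions with no test. Counts per read pair limit precision, and intervals cover counting error only.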

Additional observations from a re-analysis of the deposited data

How the results depend on the processing

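RLE scaling and summed rows left the count of replication and repair genes that fell at 5, the fit without a filter gave 4, and values divided by 4 gave 7 of 36 tested. DESeq2 gave 8, adding Mcm5, Tyms and Chaf1a. It called 523 genes lower and 639 higher over all genes, 10 other replication genes lower, and 1 repair gene outside replication lower. Of the other replication genes, 1 rose with DESeq2, with the replicate block and with values divided by 4. Leaving out 1 library at a time gave 160 to 344 genes lower and 145 to 353 higher over all genes, 2 to 3 of the 38 lower and 0 to 5 of the other replication genes lower. The median of the 38 stayed between -0.36 and -0.28. Step medians ranged from -0.26 to -0.033 for licensing, -0.20 to -0.037 for helicase activation, -0.37 to -0.17 for the clamp step and -0.81 to -0.45 for recombination. Without single libraries, the following genes changed sign, and none of them passed in any of these fits: Orc6 (-0.13 to 0.19), Cdc6 (-0.47 to 0.014), Mcm6 (-0.079 to 0.16), Mcm10 (-0.32 to 0.019), Gins2 (-0.18 to 1.00), Rfc3 (-0.37 to 0.13) and Rfc4 (-0.22 to 0.16). The causes were not tested.

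Replicate numbers are shared by the groups, but same-numbered libraries did not deviate together (r over genes of 0.008, 0.003 and -0.026). Not every library correlated best with its own number, so the numbers were taken as names of libraries. Such correlations over all genes carry counting noise and cannot exclude a pairing. Over all genes the replicate block gave 431 lower and 500 higher, against 338 and 372 without it. With the replicate block 4 of the 38 fell, Gins1 being lost (adjusted p = 0.094).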
